A study of Arabidopsis thaliana with 12 samples.

Results

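A set of 10 Arabidopsis genes that answer abscisic acid (ABA), dehydration or cold was followed in the RNA of whole seedlings. They were picked by locus identifier from a table of 27371 genes. The rule uses no measured value, but the genes were chosen with earlier results of these data known. They are NCED3 (AT3G14440), RD29A (AT5G52310), RD29B (AT5G52300), RAB18 (AT5G66400), COR15A (AT2G42540), KIN1 (AT5G15960), COR6.6 (AT5G15970, also called KIN2), COR47 (AT1G20440), ERD10 (AT1G20450) and LTI30 (AT3G50970). The libraries fell into 4 groups of 3, labelled Atg3bp1 hrcC, Atg3bp1 mock, WT hrcC and WT mock. All were of Columbia-0 seedlings, 14 days old, grown on sterile medium at 21 °C with 16 h of light and 8 h of dark. The hrcC groups had been sprayed with Pst hrcC-, a strain of Pseudomonas syringae pv tomato DC3000 that cannot deliver effectors through its type III secretion system, for 24 h. The mutant, given in the labels as Atg3bp1 and in the study as the single T-DNA insertion line Atg3bp1-1, is meant to lack AtG3BP1, a homolog of a human stress granule protein, in every cell. The study compared the genotypes to find genes whose expression depends on AtG3BP1, and its replicates came from separate experiments.

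ABA is made from carotenoids when plants lose water, and the dioxygenase encoded by NCED3 carries out the committed step. ABA binds receptors of the PYR/PYL family, which then inhibit clade A protein phosphatases and so release SnRK2 kinases, and these switch on factors that bind the ABA-responsive element (ABRE) of genes such as RD29B and RAB18. Cold acts mainly through CBF factors, which bind the dehydration-responsive element (DRE) of genes such as RD29A and COR15A. The products are hydrophilic proteins that protect cells when water is scarce. RAB18, COR47, ERD10 and LTI30 are dehydrins, COR15A protects chloroplast membranes, and KIN1 and COR6.6 are small proteins of nearly the same sequence.

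To show what lies before the genes on which the results turn, the 250 bases upstream of the annotated start (the outermost start of the annotated transcripts) were read from the TAIR10.1 genome with the RefSeq annotation. Capitals mark the ABRE core, ACGTG or its reverse complement CACGT, and the DRE core, CCGAC or its reverse complement GTCGG. COR47 and ERD10 are shown since they were lower after Pst hrcC- in both genotypes, COR6.6 for its opposite direction, and RD29A, RD29B and COR15A since they carry both kinds of core between them. The COR47 window lies at chr1:7086874-7087123 on the minus strand. The ERD10 window lies at chr1:7089607-7089856 on the minus strand. The COR6.6 window lies at chr5:5211469-5211718 on the plus strand. The RD29A window lies at chr5:21240467-21240716 on the plus strand. The RD29B window lies at chr5:21236771-21237020 on the plus strand. The COR15A window lies at chr2:17712331-17712580 on the minus strand.
COR47: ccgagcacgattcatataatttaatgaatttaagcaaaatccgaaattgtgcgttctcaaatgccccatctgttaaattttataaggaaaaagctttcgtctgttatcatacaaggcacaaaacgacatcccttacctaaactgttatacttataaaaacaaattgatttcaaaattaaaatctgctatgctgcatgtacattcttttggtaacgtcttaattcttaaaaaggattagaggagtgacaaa
ERD10: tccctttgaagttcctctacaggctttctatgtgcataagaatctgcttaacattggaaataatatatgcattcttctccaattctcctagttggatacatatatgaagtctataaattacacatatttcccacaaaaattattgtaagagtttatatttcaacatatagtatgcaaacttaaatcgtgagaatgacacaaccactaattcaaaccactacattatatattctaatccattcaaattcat
COR6.6: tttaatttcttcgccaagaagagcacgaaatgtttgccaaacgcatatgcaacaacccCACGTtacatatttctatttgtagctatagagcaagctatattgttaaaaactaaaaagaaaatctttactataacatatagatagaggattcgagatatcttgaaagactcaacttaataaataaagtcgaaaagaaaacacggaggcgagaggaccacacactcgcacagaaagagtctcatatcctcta
RD29A: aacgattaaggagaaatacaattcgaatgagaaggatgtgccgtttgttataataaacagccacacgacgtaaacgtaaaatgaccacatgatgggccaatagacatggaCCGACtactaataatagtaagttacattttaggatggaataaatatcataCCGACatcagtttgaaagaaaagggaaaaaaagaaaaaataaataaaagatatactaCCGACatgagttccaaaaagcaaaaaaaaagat
RD29B: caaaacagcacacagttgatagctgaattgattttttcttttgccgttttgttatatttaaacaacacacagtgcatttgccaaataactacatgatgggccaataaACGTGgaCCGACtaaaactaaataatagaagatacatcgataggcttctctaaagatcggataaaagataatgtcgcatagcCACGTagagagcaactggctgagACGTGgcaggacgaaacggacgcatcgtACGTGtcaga
COR15A: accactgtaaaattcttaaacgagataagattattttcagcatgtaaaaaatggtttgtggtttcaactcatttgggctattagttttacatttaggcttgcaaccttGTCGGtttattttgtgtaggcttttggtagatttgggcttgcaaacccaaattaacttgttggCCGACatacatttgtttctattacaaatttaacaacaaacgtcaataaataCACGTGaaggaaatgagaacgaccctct

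Of the 10 windows, 5 held an ABRE core, against 23.1% of the windows of the same length before all 26693 protein-coding genes listed. RD29B held 4, RAB18 held 3, and KIN1 and COR6.6 held 1 each. COR15A held a G-box (CACGTG), which reads as an ABRE core on both strands. A DRE core stood in 4 windows (11.9% of all): 3 times before RD29A, at -140, -90 and -33 from the start, 3 times before LTI30, 2 times before COR15A and 1 time before RD29B. An evening element core (AAATATCT, on either strand) stood before RAB18 and KIN1 (4.84% of all). The windows of COR47, ERD10 and NCED3 held none of the 4 motifs, which says only that these letters were not in these 250 bases. The windows of RAB18 and LTI30 overlap a neighbouring gene and are not printed.

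**Figure D1:**
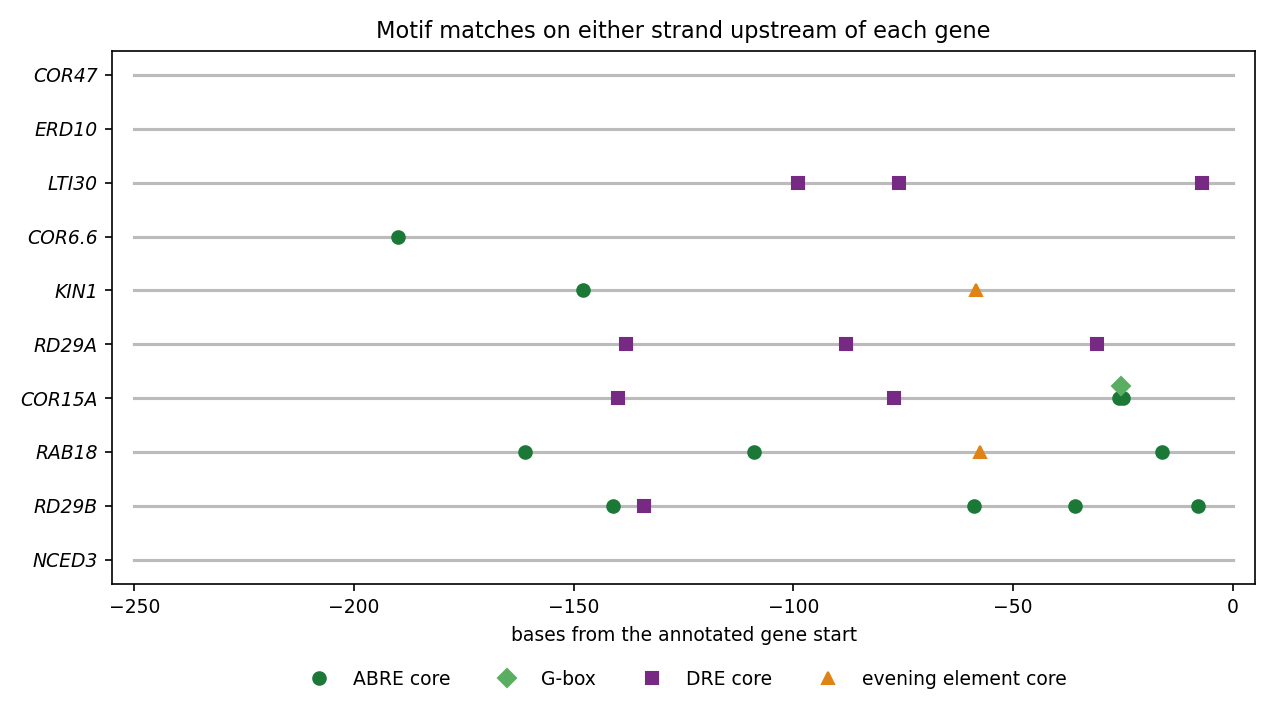
Motif matches on either strand in the 250 bases before each gene, with the horizontal axis in bases from the annotated start and each gray line 1 gene. RD29B carries 4 ABRE cores, RD29A and LTI30 carry 3 DRE cores each, and the lines of COR47, ERD10 and NCED3 are empty.

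Several of the genes lie side by side as near copies. KIN1 and COR6.6 lie 892 bases apart on chromosome 5, and 191 of their 201 coding bases are identical (95.0%), with an exact run of 58 bases. COR47 and ERD10 lie 1029 bases apart on chromosome 1 (82.3% of 746 aligned coding bases identical, longest exact run 32), and RD29A and RD29B lie 1185 bases apart on chromosome 5 (77.3% of 1741 bases, longest run 41). COR15A has a copy, COR15B, 7 bases away (83.8%), and LTI30 has one, XERO1, at 313 bases (70.9%). Reads from the shared stretches can be given to the wrong copy, so the levels of KIN1 and COR6.6 in particular are uncertain relative to each other.

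A few facts of the whole series bear on these values. AtG3BP1 itself (AT5G48650) went against the labels: it was listed at 11.4 to 18.4 FPKM (fragments per kilobase of transcript, scaled to library size) in the 6 libraries labelled Atg3bp1 and at 0.018 to 0.426 FPKM in the 6 labelled WT. The direction of every difference between genotypes given here therefore rests on the labels, and Atg3bp1 and WT name the libraries so labelled. The libraries summed to 428556 to 494126 FPKM, and 1 locus (AT2G01021) took 20.3 and 31.6% of replicates 2 and 3 of Atg3bp1 hrcC, against 4.03 to 12.6% of each of the other 10 libraries. FPKM hold no depth, so no counting interval can be given. For the tests each library was rescaled to a common upper quartile by a factor of 0.866 to 1.20. Shoot markers were high, with a summed level of 4 genes (RBCS1A, RBCS2B, LHCB1.1, LHCB2.1) of 14637 to 29292 FPKM over all libraries, while the 12 seed markers summed to at most 4.26 FPKM, with 3 of them (SESA3, CRB and CRC) at 0 throughout.

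The 10 genes covered a wide range of levels. COR47 was highest, with a mean of 105.5 FPKM over the 12 libraries (46.4 to 194), followed by COR6.6 with 65.7 (20.8 to 100.4), LTI30 with 50.3 (25.4 to 81.6) and ERD10 with 37.6 (16.1 to 83.9). The ranges of neighbours in that order overlapped. KIN1, RD29A and COR15A stood together at means of 5.62, 5.55 and 5.09 FPKM, and RAB18 at 2.34 FPKM. NCED3 (mean 0.555 FPKM) and RD29B (mean 0.230 FPKM) were below the filter of a mean of 1 FPKM and were not tested, so that 8 of the 10 genes entered the fit of 17158 genes. FPKM are per length of transcript, and levels of near copies (COR47 and ERD10, KIN1 and COR6.6) remain uncertain relative to each other.

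**Figure D2:**
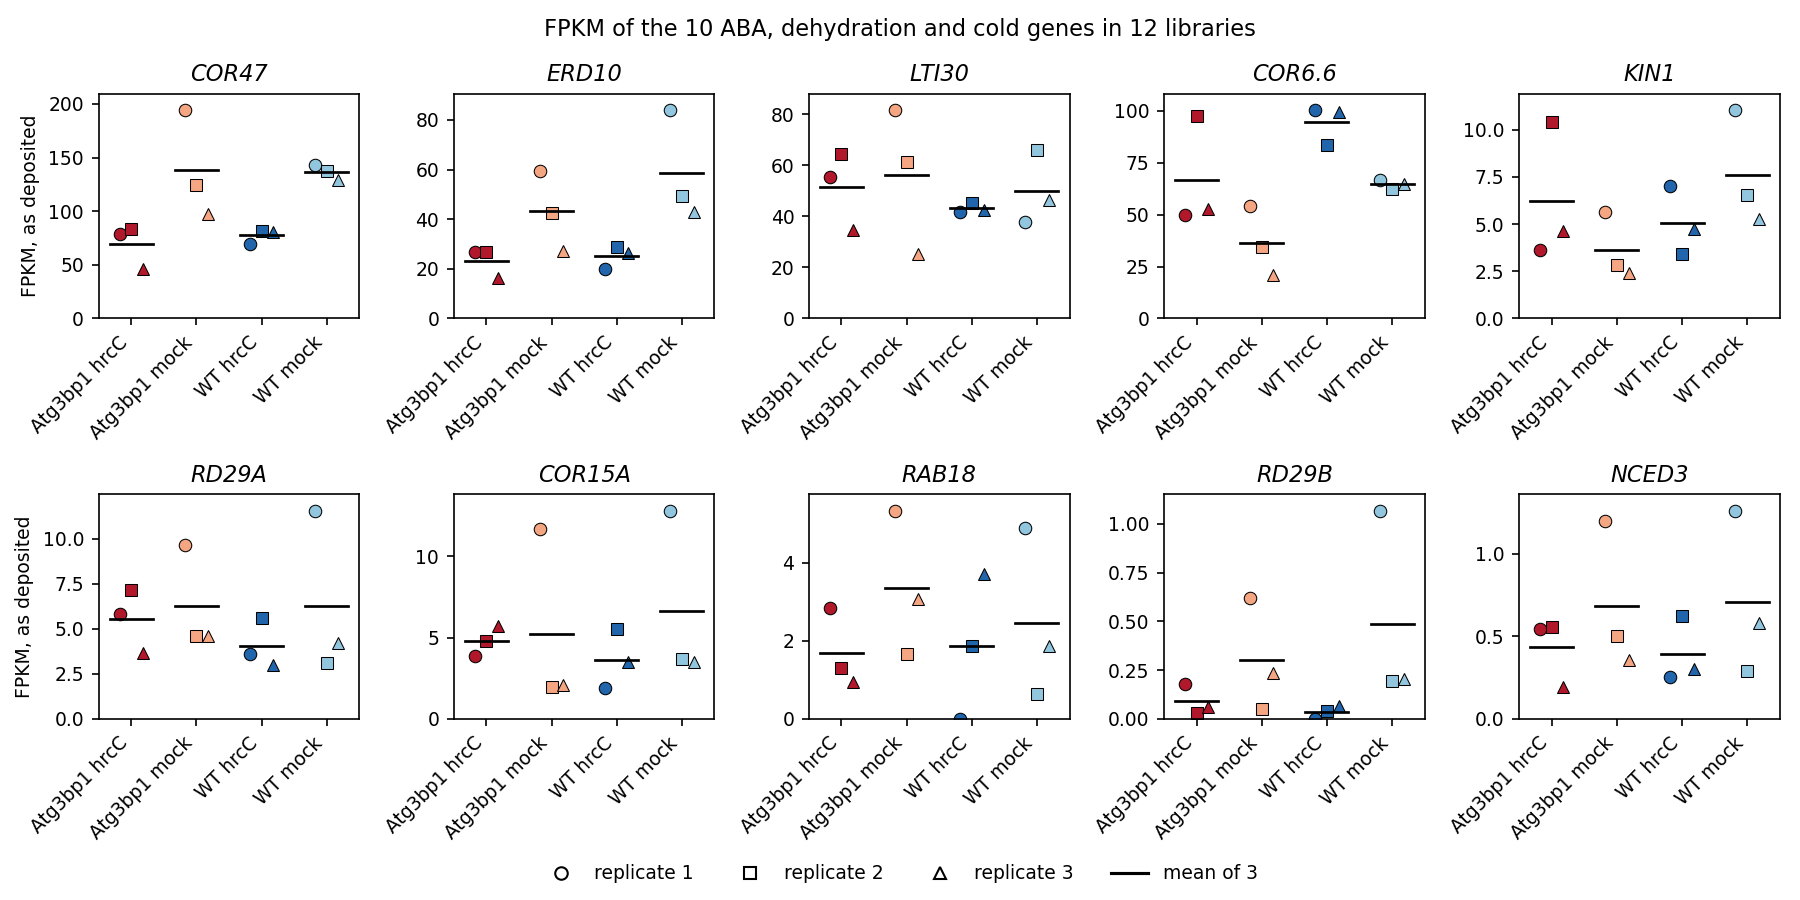
FPKM as deposited of each gene (vertical axes from 0), with the 4 groups on the horizontal axes, 1 symbol per library by replicate number and a line at the mean of 3. The 6 hrcC libraries lie below the mock libraries of their own genotype for COR47 and ERD10, as in 3.2% of all genes tested. The circles of both mock groups stand high for RD29A, COR15A, RAB18, RD29B and NCED3.

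The neighbouring acidic dehydrin genes COR47 and ERD10 had lower levels after Pst hrcC- in both genotypes, without overlap of the libraries. Of all genes tested, 3.2% had this order in both genotypes. Neither gene was called within a genotype in the fit of the 4 groups. COR47 was at 79.1, 83.9 and 46.4 FPKM in Atg3bp1 hrcC, against 194, 124 and 97.0 FPKM in Atg3bp1 mock. In the libraries labelled WT it was at 69.9, 81.5 and 81.0 FPKM after hrcC, against 143, 137 and 129.0 FPKM in mock. All 6 hrcC libraries thus lay below the lowest mock library. Genes with that stricter order are a part of the 3.2%, and their own share was not taken. ERD10 was at 26.8, 26.8 and 16.1 FPKM in Atg3bp1 hrcC, against 59.5, 42.7 and 27.3 FPKM in Atg3bp1 mock. It was at 20.1, 28.8 and 26.3 FPKM in WT hrcC, against 83.9, 49.4 and 43.0 FPKM in WT mock. The groups did not overlap in either genotype, but the lowest Atg3bp1 mock library was close to the highest Atg3bp1 hrcC library. Replicate 3 of Atg3bp1 hrcC, in which AT2G01021 took the largest share, was the lowest of its group for both genes, and the part of that share was not tested.

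A gene was called with a Benjamini-Hochberg adjusted p of at most 0.05 over all genes tested by limma and at least a 2-fold change on the scale of log2(FPKM + 1). For COR47 the log2 fold change was -0.93 (SE 0.27, adjusted p = 0.0862) in Atg3bp1 and -0.80 (SE 0.27, adjusted p = 0.133) in WT. For ERD10 it was -0.80 (SE 0.35, adjusted p = 0.304) in Atg3bp1 and -1.14 (SE 0.35, adjusted p = 0.106) in WT. ERD10 in WT was called with a replicate block within each treatment (-1.14, limma adjusted p = 0.0271) and with a term for libraries of high scaling factor (-1.46, adjusted p = 0.00534), and was at -0.76 (adjusted p = 0.23) without WT mock replicate 1. With both genotypes averaged, a contrast chosen once the data had been looked at, COR47 was lower, at -0.87 (SE 0.19, 95% interval -1.28 to -0.46, limma adjusted p = 0.0123) and ERD10 was at -0.97 (SE 0.25, 95% interval -1.52 to -0.43, adjusted p = 0.0294). Both passed the adjusted p and not the 2-fold threshold. With that p alone, 3.58% of all genes were lower in the averaged contrast and 5.82% were higher. The change of COR47 passed 0.05 in 24 of 24 alternative settings, and that of ERD10 in 16 of 24. The interaction, the difference between the 2 responses, was -0.13 (95% interval -0.95 to 0.70) for COR47 and 0.34 (95% interval -0.75 to 1.43) for ERD10, intervals that hold both no difference and one of about the size of the response itself.

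Over the 8 genes tested, limma called 0 higher and 0 lower in Atg3bp1 after Pst hrcC-, with 3 at an unadjusted p below 0.05 (COR47, ERD10 and COR6.6), as had 15.1% of all genes. Among all genes 2.57% were called higher and 0.554% lower in that contrast. In WT limma also called 0 higher and 0 lower, with 2 at an unadjusted p below 0.05 (COR47 and ERD10), as had 17.7% of all genes, while 2.87% of all genes were called higher and 0.321% lower. The median log2 fold change of the 8 was -0.04 in Atg3bp1, against -0.07 over all genes tested, and -0.44 in WT, against -0.06 over all genes tested. Without replicate 1 of the mock group the median of the 8 was 0.27 in Atg3bp1 (all genes -0.07) and -0.05 in WT (all genes -0.05), and without WT hrcC replicate 1 it was -0.23 in WT. Genes whose libraries did not overlap were common in this table. In Atg3bp1, 2 of the 8 had every hrcC library below every mock library, as had 17.1% of all genes. In WT, again 2 of the 8 did, as had 8.42% of all genes. COR47 and ERD10 did so in both genotypes at once, as had 3.2% of all genes.

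**Figure D3:**
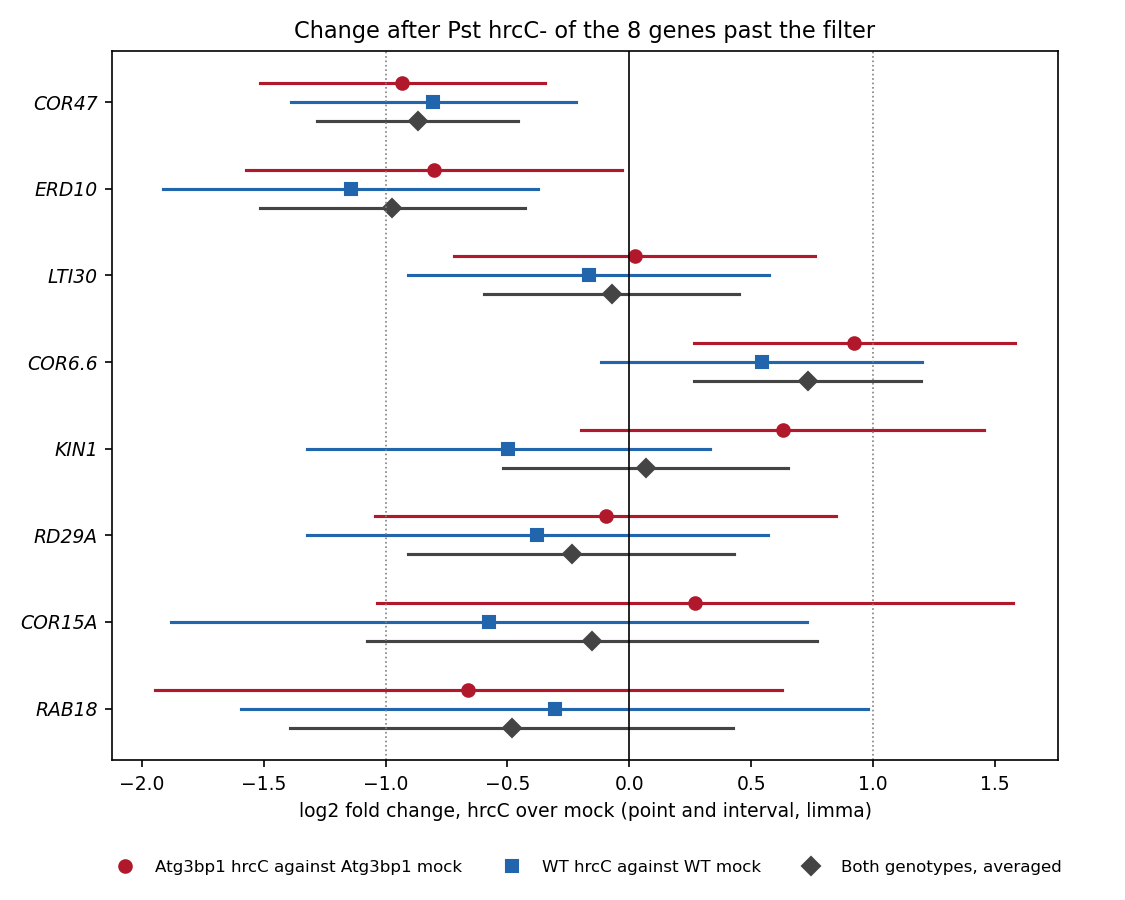
Log2 fold change after Pst hrcC- (horizontal axis) of the 8 genes past the filter, in Atg3bp1 (circles), in WT (squares) and averaged over both (diamonds), with 95% intervals from limma and dotted lines at the 2-fold threshold. The intervals of COR47 and ERD10 lie below 0 in all 3 rows, those of COR6.6 lie above 0 in Atg3bp1 and in the average, and the others include 0.

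Sums of guard cell, root, shoot and clock genes also had lower ranges after Pst hrcC-, most of them with overlap. The guard cell markers (FAMA, MYB60, KAT1 and SLAC1) summed to 6.70 to 9.36 FPKM in Atg3bp1 hrcC, against 10.1 to 14.7 FPKM in Atg3bp1 mock, and to 8.16 to 14.2 FPKM in WT hrcC, against 13.5 to 20.7 FPKM in WT mock. All 4 were above 0 in every library, and the groups overlapped in WT but not in Atg3bp1. In WT, MYB60 and KAT1 were at -0.65 and -0.52 on the log2 scale, and FAMA and SLAC1 at 0.08 and 0.15. The root markers (CASP1, COBL9, EXPA7 and RHD6) summed to 10.05 to 17.4 FPKM in Atg3bp1 hrcC, against 15.4 to 34.6 FPKM in Atg3bp1 mock, and to 8.73 to 18.8 FPKM in WT hrcC, against 13.3 to 21.9 FPKM in WT mock, with overlap in both genotypes. The 4 shoot markers summed to 14637 to 19990 FPKM in Atg3bp1 hrcC, against 18418 to 22824 FPKM in Atg3bp1 mock, and to 17335 to 21366 FPKM in WT hrcC, against 20750 to 29292 FPKM in WT mock, again with overlap in both. A list of 8 clock genes, which set the time of day at which cold genes are expressed, summed to 70.7 to 88.7 FPKM in Atg3bp1 hrcC, against 97.0 to 99.2 FPKM in Atg3bp1 mock, and to 92.7 to 101.6 FPKM in WT hrcC, against 108.3 to 131 FPKM in WT mock, without overlap in either genotype. Single genes did not all follow their sum. The log2 fold change was above 0 for 1 of the 7 tested clock genes in Atg3bp1 and for 2 in WT. PRR7 averaged 24.3 FPKM in Atg3bp1 hrcC against 22.9 FPKM in Atg3bp1 mock. In WT it averaged 17.9 against 16.1 FPKM. Of the 4 shoot markers, 1 was above 0 in each genotype. No share over all genes was taken for sums. None of these marker or clock genes was called by limma after Pst hrcC-, and their part in the result was not tested. In RNA of whole seedlings, fewer cells of a type and less RNA per cell cannot be told apart.

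LTI30, a basic dehydrin that binds membranes, had groups that overlapped throughout. It was at 55.6, 64.6 and 34.8 FPKM in Atg3bp1 hrcC, against 81.6, 61.4 and 25.4 FPKM in Atg3bp1 mock, and at 41.9, 45.4 and 42.4 FPKM in WT hrcC, against 37.9, 65.8 and 46.5 FPKM in WT mock. Its log2 fold change after Pst hrcC- was 0.02 (95% interval -0.72 to 0.76) in Atg3bp1 and -0.17 (95% interval -0.91 to 0.57) in WT, and the sign of each turned when some single libraries were left out. XERO1, the dehydrin gene next to it, was below the filter, at 0 to 1.68 FPKM over all libraries.

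COR6.6 had higher levels after Pst hrcC- and was not called. It was at 49.9, 97.5 and 53.0 FPKM in Atg3bp1 hrcC, against 54.0, 34.7 and 20.8 FPKM in Atg3bp1 mock, and these groups overlapped. In WT hrcC it was at 100.4, 83.8 and 99.5 FPKM, all above the 67.0, 62.3 and 64.9 FPKM of WT mock, as in 8.45% of all genes. The groups ran in the order WT hrcC (94.6 ± 9.32 FPKM), Atg3bp1 hrcC (66.8 ± 26.6), WT mock (64.7 ± 2.35) and Atg3bp1 mock (36.5 ± 16.7; SD, n = 3 each). Atg3bp1 hrcC and WT mock did not differ beyond their spread, and the libraries of WT hrcC and Atg3bp1 hrcC overlapped. The log2 fold change was 0.92 (SE 0.30, limma adjusted p = 0.14) in Atg3bp1 and 0.54 (SE 0.30, adjusted p = 0.393) in WT, and 0.73 (SE 0.21, adjusted p = 0.052) averaged over both, which passed 0.05 in 9 of 24 alternative settings. Without Atg3bp1 mock replicate 1 the change in Atg3bp1 was 1.23 (limma adjusted p = 0.0471), past both thresholds, while it was 0.63 (adjusted p = 0.391) without Atg3bp1 mock replicate 3 and 0.65 (adjusted p = 0.396) without Atg3bp1 hrcC replicate 2.

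KIN1, its near copy, was at 3.61, 10.4 and 4.63 FPKM in Atg3bp1 hrcC, against 5.62, 2.82 and 2.40 FPKM in Atg3bp1 mock. In WT hrcC it was at 7.01, 3.42 and 4.74 FPKM, against 11.0, 6.56 and 5.25 FPKM in WT mock. The groups overlapped in both genotypes. The log2 fold change was 0.63 (95% interval -0.20 to 1.46) in Atg3bp1 and -0.50 (95% interval -1.32 to 0.33) in WT, and the interaction was 1.13 (SE 0.54, unadjusted p = 0.0578, limma adjusted p = 0.991). Single libraries weighed on these values: the change was 0.27 in Atg3bp1 without hrcC replicate 2, and -0.14 in WT without mock replicate 1. Limma called 0 genes of the whole table for the interaction in either direction (0% higher and 0% lower), with 0 of the 8 genes and 755 of all genes (4.4%) at an unadjusted p below 0.05. In Atg3bp1 hrcC replicate 2 both KIN1 and COR6.6 were highest within their group. Over the 12 libraries the log2 levels of the pair had a Pearson correlation of 0.62, and of 0.81 after the group means were taken out. They share libraries and much of their sequence.

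RD29A, COR15A, RAB18, RD29B and NCED3, the genes named above for ABA synthesis, the ABRE or the DRE, were low and uneven. The motif matches did not follow this grouping, since NCED3 held none and LTI30, outside it, held 3 DRE cores. RD29A was at 5.80, 7.16 and 3.68 FPKM in Atg3bp1 hrcC, against 9.63, 4.61 and 4.62 FPKM in Atg3bp1 mock, and at 3.58, 5.62 and 3.02 FPKM in WT hrcC, against 11.6, 3.08 and 4.23 FPKM in WT mock. COR15A was at 3.88, 4.78 and 5.73 FPKM in Atg3bp1 hrcC, against 11.7, 1.99 and 2.09 FPKM in Atg3bp1 mock, and at 1.90, 5.52 and 3.53 FPKM in WT hrcC, against 12.8, 3.69 and 3.48 FPKM in WT mock. In both genes the 2 mock libraries numbered 1 stood above all others. Of the 6 hrcC libraries, 3 for RD29A and 4 for COR15A lay above all 4 other mock libraries.

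RAB18, an ABA-induced dehydrin, was at 2.83, 1.31 and 0.944 FPKM in Atg3bp1 hrcC, against 5.33, 1.67 and 3.07 FPKM in Atg3bp1 mock. It was listed at 0, 1.87 and 3.72 FPKM in WT hrcC, against 4.89, 0.635 and 1.88 FPKM in WT mock. Its groups overlapped in both genotypes, and the library listed at 0 was WT hrcC replicate 1. RD29B, which answers ABA more than cold, was at 0.178, 0.0332 and 0.0604 FPKM in Atg3bp1 hrcC, against 0.618, 0.0534 and 0.236 FPKM in Atg3bp1 mock. It was listed at 0, 0.0423 and 0.0668 FPKM in WT hrcC, all below the 1.07, 0.193 and 0.207 FPKM of WT mock. In Atg3bp1 the groups overlapped. NCED3, the gene of ABA synthesis, was at 0.546, 0.559 and 0.195 FPKM in Atg3bp1 hrcC, against 1.20, 0.502 and 0.355 FPKM in Atg3bp1 mock. In WT hrcC it was at 0.254, 0.623 and 0.303 FPKM, against 1.26, 0.287 and 0.582 FPKM in WT mock. Of these 3 genes, only RD29B in WT had groups that did not overlap after Pst hrcC-, at levels below the filter. Among the genes tested, 8.42% had every WT hrcC library below every WT mock library.

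The tested changes of RD29A, COR15A and RAB18 were smaller than their errors or close to them. After Pst hrcC- the log2 fold change of RD29A was -0.10 (95% interval -1.04 to 0.85) in Atg3bp1 and -0.38 (95% interval -1.32 to 0.57) in WT. That of COR15A was 0.27 (95% interval -1.04 to 1.57) in Atg3bp1 and -0.58 (95% interval -1.88 to 0.73) in WT, and that of RAB18 was -0.66 (95% interval -1.94 to 0.62) in Atg3bp1 and -0.31 (95% interval -1.59 to 0.98) in WT. Without replicate 1 of the mock group, RD29A was at 0.20 in Atg3bp1 and 0.19 in WT, COR15A at 0.94 in Atg3bp1 (limma adjusted p = 0.554) and 0.04 in WT, and RAB18 at -0.36 in Atg3bp1 and 0.24 in WT. The direction of RD29A in both genotypes and of COR15A and RAB18 in WT thus turned with 1 library. COR15A in Atg3bp1 was at -0.11 without mock replicate 2 and at -0.03 without mock replicate 3, and RAB18 in WT was at 0.33 without hrcC replicate 1, the library listed at 0. The intervals over all libraries hold changes of 2-fold in at least 1 direction, so a change of that size could not be told from none with 3 libraries a group. COR15B, next to COR15A, was at 0.407 to 2.75 FPKM over all libraries, with a change of 0.04 (SE 0.37) in Atg3bp1 and -0.39 (SE 0.37) in WT.

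Replicate 1 of both mock groups was high for most of the set. In 7 of the 10 genes (NCED3, RD29A, RD29B, RAB18, COR15A, COR47 and ERD10), and in 5 of the 8 tested, both of these libraries lay above the other 4 mock libraries, as in 7.22% of all genes tested. For COR15A the 2 libraries were at 11.7 FPKM (Atg3bp1) and 12.8 FPKM (WT), and the other 4 at 1.99 to 3.69 FPKM. For RD29A they were at 9.63 and 11.6 FPKM, and the other 4 at 3.08 to 4.62 FPKM. KIN1, COR6.6 and LTI30 did not have this order across the genotypes. For KIN1 and COR6.6, each of the 2 libraries was still the highest mock library of its own genotype. For LTI30 this held in Atg3bp1 only. No share over all genes was taken for that order within a genotype. Without these 2 libraries, an alternative chosen once the data had been looked at, the averaged change of COR47 after Pst hrcC- was -0.67 (limma adjusted p = 0.0405), that of ERD10 was -0.66 (limma adjusted p = 0.0733) and that of COR6.6 was 0.95 (limma adjusted p = 0.013).

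**Figure D4:**
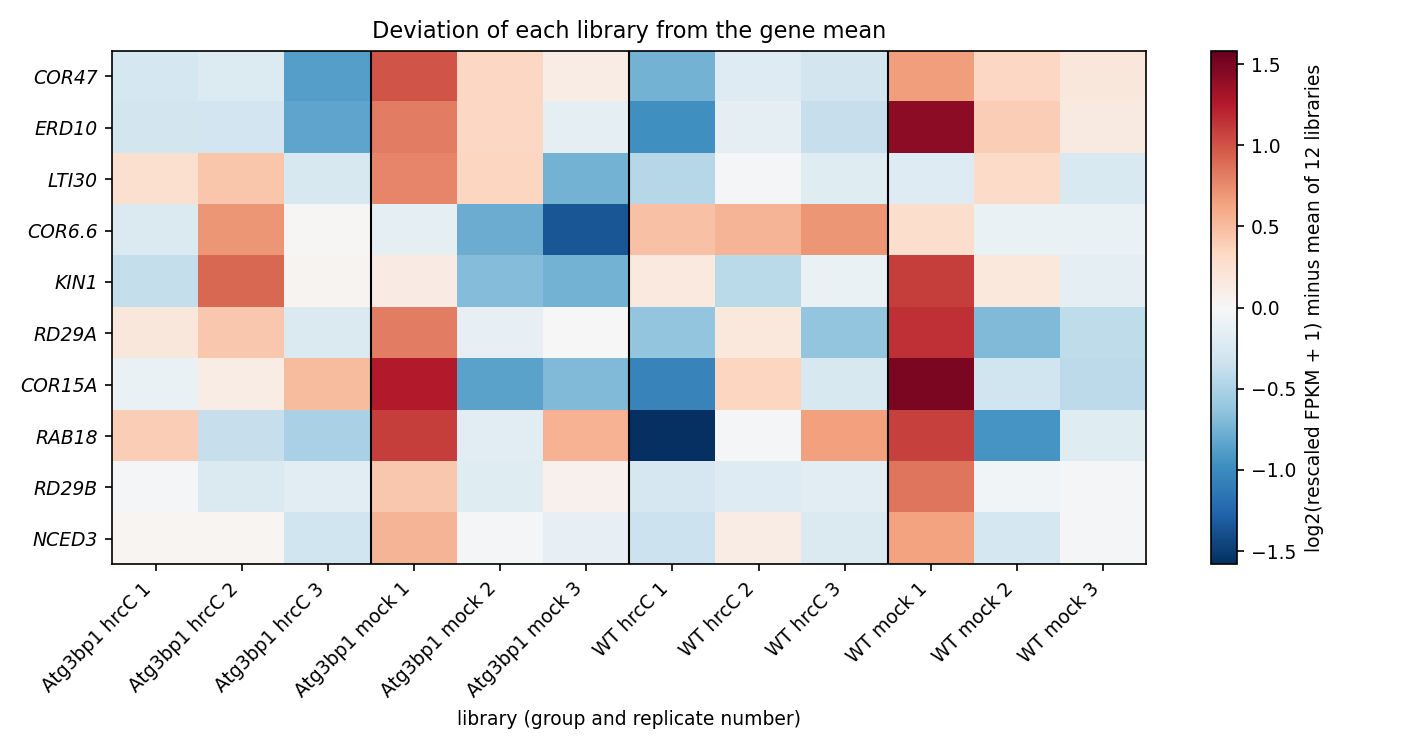
Each cell gives log2(rescaled FPKM + 1) of 1 gene (rows) in 1 library (columns, by group and replicate number) minus the mean of that gene over the 12 libraries, in red above and in blue below. The 2 mock libraries numbered 1 are red in nearly every row, the exceptions being COR6.6 in Atg3bp1 and LTI30 in WT, and the RAB18 cell of WT hrcC 1, listed at 0 FPKM, is the darkest blue.

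The libraries labelled Atg3bp1 and WT were compared within each treatment. In mock, limma called 0 of the 8 higher and 0 lower in Atg3bp1, with 1 (COR6.6) at an unadjusted p below 0.05, as had 21.1% of all genes, where 0.921% of all genes were called higher and 0.0583% lower. COR6.6 was lower in Atg3bp1 mock than in WT mock by each library, as in 17.1% of all genes, at -0.78 on the log2 scale (SE 0.30, limma adjusted p = 0.168). COR6.6 was at -0.49 without Atg3bp1 mock replicate 3. KIN1 was at -0.81 (SE 0.38, limma adjusted p = 0.247), and at -0.45 without WT mock replicate 1. The other 6 had changes of -0.35 to 0.51. After Pst hrcC- the values ran from -0.40 for COR6.6 to 0.50 for COR15A, with 0 called higher, 0 called lower and 0 at an unadjusted p below 0.05 by limma, as had 5.41% of all genes. In that contrast 0.00583% of all genes were called higher and 0.00583% lower. The widest 95% interval in mock was that of COR15A, -1.65 to 0.96, and the narrowest that of COR47, -0.49 to 0.68. The 12 seed markers summed to 3.03 to 4.26 FPKM in Atg3bp1 mock, against 0.147 to 0.740 FPKM in WT mock, and to 2.34 to 4.16 FPKM in Atg3bp1 hrcC, against 0 to 1.52 FPKM in WT hrcC. In the Atg3bp1 libraries most of this was PAP85, called higher in Atg3bp1 mock at 1.96 on the log2 scale (limma adjusted p = 0.00912), and its part in the values between genotypes was not tested.

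Some of the genes varied together over the 12 libraries, given here as a description, since libraries share group and depth. COR47 and ERD10 had the highest Pearson correlation of log2 levels of any pair, 0.93 over the 12 libraries and 0.89 after the group means were taken out. These near copies also share coding sequence (82.3% of aligned bases identical), and the part of misassigned reads was not tested. RD29A and COR15A had 0.80, and 0.83 after the group means were taken out, and RD29A and ERD10 had 0.64 and 0.86. COR6.6 and COR47 had -0.33 over the 12 libraries and 0.71 after the group means were taken out. The gene outside the set whose levels were most like those of COR47 was UGT73B2 (AT4G34135), a glucosyltransferase, at 0.96, and for ERD10 it was MTO3 (AT3G17390), a methionine adenosyltransferase, at 0.96. For LTI30 it was another glucosyltransferase gene, UGT73B5 (AT2G15480), at 0.92. The nearest genes were AT1G64628 for RD29A (0.95), TRM17 (AT2G20240) for RAB18 (0.96), AGC1.5 (AT3G12690), a kinase, for COR15A (0.92), SDRB (AT3G12800) for KIN1 (0.94) and AT5G47730 for COR6.6 (0.93). Each of these values is the largest over all tested genes outside the set, with group means left in. A high value is thus partly the outcome of that selection, and shared control was not tested.

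The wider machinery of ABA and cold was read from a further list of 80 genes, of which 54 passed the filter. The list was chosen with earlier results of these data known. Its counts beside the shares of all genes are therefore a description only. Limma called 7 of the 54 higher and 0 lower in Atg3bp1 after Pst hrcC-, where 2.57% of all genes were called higher, and 5 higher and 0 lower in WT, where 2.87% of all genes were. The 5 called in WT (BGLU18, RD20, GOLS1, RD26 and PYL7) were among the 7 called in Atg3bp1. The median log2 fold change of the 54 was 0.07 in Atg3bp1, against -0.07 over all genes tested, and 0.09 in WT, against -0.06 over all genes tested.

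BGLU18, a glucosidase that frees ABA from its glucose ester, had the largest change of the list. It was at 171.8, 236.9 and 224.8 FPKM in Atg3bp1 hrcC, against 11.8, 11.6 and 7.85 FPKM in Atg3bp1 mock, which is 4.26 on the log2 scale (SE 0.33, limma adjusted p = 1.12e-05). It was at 198.1, 369.2 and 221.9 FPKM in WT hrcC, against 11.3, 5.79 and 9.70 FPKM in WT mock, or 4.72 (SE 0.33, adjusted p = 4.47e-06). RD20, a caleosin of lipid bodies used as a drought marker, was at 14.1, 12.5 and 15.2 FPKM in Atg3bp1 hrcC, against 1.63, 0.312 and 0.587 FPKM in Atg3bp1 mock. It was at 17.5, 16.9 and 22.7 FPKM in WT hrcC, against 2.17, 0.716 and 1.25 FPKM in WT mock. Its log2 fold change was 3.14 in Atg3bp1 (SE 0.30, adjusted p = 5.68e-05) and 3.07 in WT (SE 0.30, adjusted p = 6.22e-05). In both genes the groups were far apart in each genotype.

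GOLS1, which makes galactinol for the raffinose sugars, rose by 1.62 (adjusted p = 0.014) in Atg3bp1 and by 1.98 (limma adjusted p = 0.00393) in WT on the log2 scale. Its adjusted p in Atg3bp1 was 0.0652 without Atg3bp1 mock replicate 2, 0.0669 without mock replicate 3 and 0.0671 without hrcC replicate 2. RD26, a NAC factor of the ABA and drought response, rose by 1.23 (adjusted p = 0.00216) in Atg3bp1 and by 1.50 (limma adjusted p = 0.000477) in WT. PYL7, the receptor on the list that was called, rose by 1.13 (adjusted p = 0.00613) in Atg3bp1 and by 1.06 (limma adjusted p = 0.0089) in WT, and fell short of 2-fold without Atg3bp1 hrcC replicate 1 (0.94) and without WT mock replicate 2 (0.97). COR413IM1, which encodes a cold-induced protein of the inner chloroplast envelope, rose in Atg3bp1 by 1.62 (adjusted p = 0.00582) and was at 0.61 (limma adjusted p = 0.286) in WT. With a pseudocount of 0.1 the change in Atg3bp1 was 2.57 (adjusted p = 0.0107). Its interaction, 1.00 (SE 0.40, unadjusted p = 0.0275, limma adjusted p = 0.991), did not pass. The seventh gene in Atg3bp1 was ERD1, a chloroplast protease subunit, at 42.8, 32.8 and 27.3 FPKM in Atg3bp1 hrcC, against 20.3, 13.6 and 13.7 FPKM in Atg3bp1 mock (limma adjusted p = 0.025), named here to complete the count. Its call was lost without any 1 of Atg3bp1 mock replicates 2 and 3 and the 3 Atg3bp1 hrcC libraries (adjusted p of 0.0571 to 0.129) and with a replicate block (0.0557 within each treatment). In WT, ERD1 was at 25.85, 23.93 and 37.55 FPKM in hrcC, against 11.69, 20.99 and 14.82 FPKM in mock. That change, 0.85 on the log2 scale, was not called, but it was without WT hrcC replicate 1 (1.02, limma adjusted p = 0.0423).

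By role, 1 of the 8 tested genes of ABA turnover and transport was called higher in each genotype (BGLU18), and so was 1 of the 22 tested genes of receptors and signalling (PYL7). Of the 14 tested genes of ABA and drought output, 4 were called in Atg3bp1 and 3 in WT. Of the 10 tested cold genes, 1 was called in Atg3bp1 and 0 in WT. Limma put 5 of them in Atg3bp1 and 2 in WT at an unadjusted p below 0.05, against 15.1% and 17.7% of all genes. Among all genes tested, 2.57% were called higher in Atg3bp1 and 2.87% in WT. The cold regulators CBF1, CBF2 and CBF3 were below the filter, at no more than 0.222, 0.624 and 0.655 FPKM in any library. No gene of the list was called between genotypes. In mock the smallest p-values were those of RD26, at 0.74 (unadjusted p = 0.00195, limma adjusted p = 0.0692), and the ABRE-binding factor gene ABF2, at -0.66 (unadjusted p = 0.00237, limma adjusted p = 0.0733). After Pst hrcC- they were those of ZAT12, at 0.92 (unadjusted p = 0.0116, limma adjusted p = 0.885), and COR413IM1, at 0.82 (unadjusted p = 0.0133, limma adjusted p = 0.89). For the interaction, ICE1, an activator of CBF3, followed COR413IM1 with -0.53 (unadjusted p = 0.0521, limma adjusted p = 0.991). At an unadjusted p below 0.05 limma gave 5 of the 54 in mock, 9 after Pst hrcC- and 1 for the interaction, against 21.1%, 5.41% and 4.4% of all genes in the same order.

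**Figure D5:**
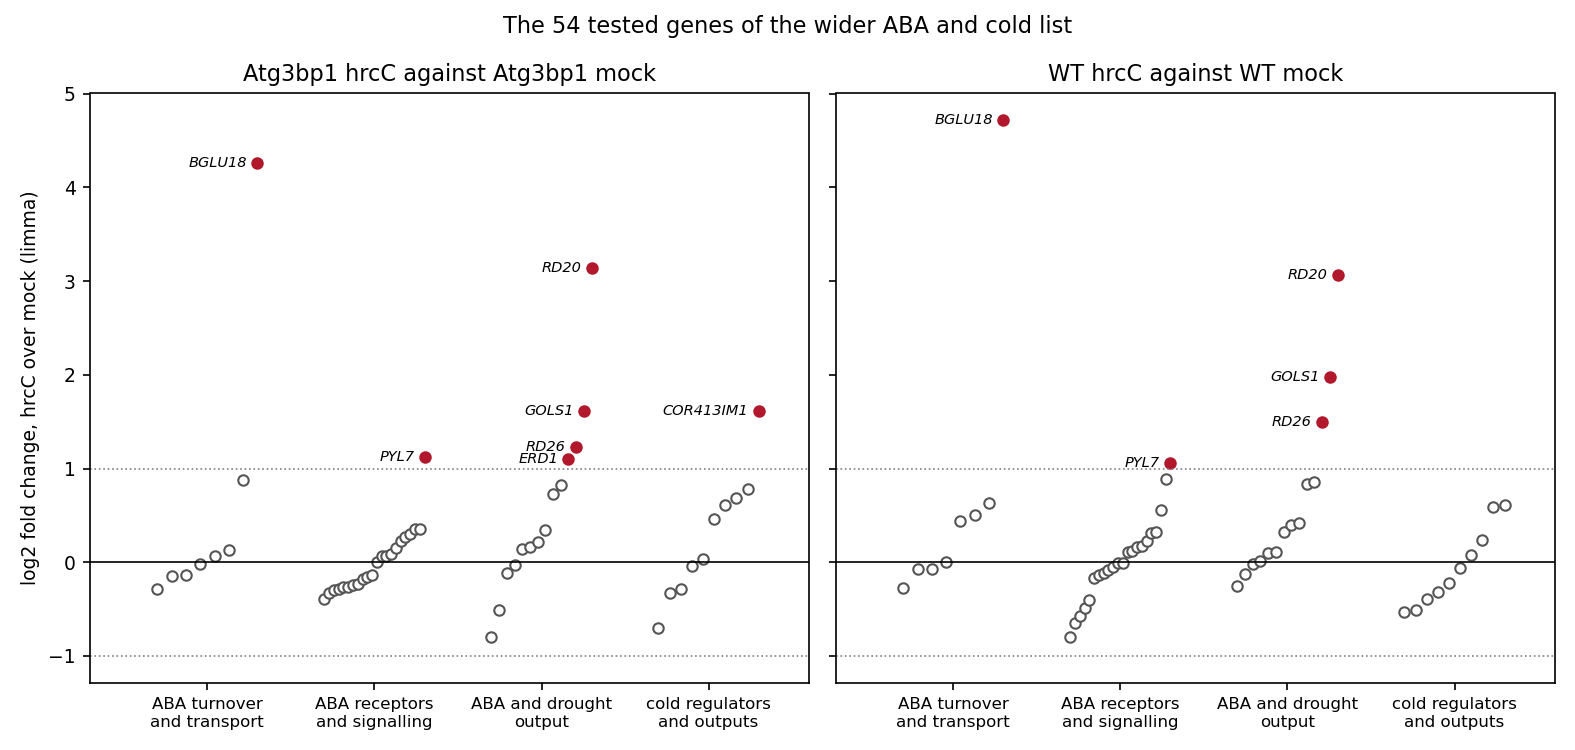
Log2 fold change after Pst hrcC- (vertical axis) of the 54 tested genes of the wider list in Atg3bp1 (left) and WT (right), in columns by role and in order of size, with filled points for genes called by limma and dotted lines at the 2-fold threshold. The filled points, 7 in Atg3bp1 and 5 in WT, are all above 1, and BGLU18 stands highest in both panels.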

How the data were processed

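The authors used Trimmomatic for trimming, TopHat for alignment to TAIR10 and Cufflinks for FPKM per library (versions are not in the labels). The deposited FPKM table holds 27371 genes in 12 libraries, with no counts. All its columns of library values were used. The genes and lists were chosen with earlier results of these data known.

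FPKM were divided by library factors to a common upper quartile, and genes averaging 1 FPKM or more (17158) were transformed as log2(FPKM + 1). This pseudocount understates changes of low genes. Limma 3.58.1 (R 4.3.3) fitted the 4 groups with a trended prior. The treatment averaged over genotypes was chosen once the data had been looked at. P-values were adjusted by Benjamini-Hochberg over all genes tested, and genes were called at an adjusted p of at most 0.05 and at least 2-fold. The fit was tested on simulated data. Levels and SDs are FPKM as deposited. Each library was left out in turn, and scalings, pseudocounts, filters, prior, blocks and thresholds were varied.

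Same-numbered mock libraries of the 2 genotypes deviated together from their group means (correlations across genes of 0.375, 0.102 and 0.315). Mock libraries of unlike number were at -0.414 to 0.132. Same-numbered hrcC libraries of the 2 genotypes were at 0.042, 0.43 and 0.105, and those of unlike number at -0.324 to 0.201. Same numbers across treatments were at -0.424 to 0.17, and unlike numbers at -0.357 to 0.475. Mock replicates 1 and hrcC replicates 2 were at 0.347 to 0.475 in every combination of genotypes, and the reason was not tested. The numbers may thus pair the genotypes within each treatment, which these values do not settle. Named genes were the 10 of the set, genes of the wider list called in a contrast (at most 6 by size, or the 2 smallest p where none was called), neighbouring copies, and the most correlated gene of each tested member. Positions, promoters and coding sequences came from TAIR10.1 (Biopython 1.88), in which 26703 identifiers were found.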

Additional observations from a re-analysis of the deposited data

How the results depend on the processing

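Of 51 single changes followed, 13 turned sign in at least 1 alternative, none of them called. Leaving out 1 library at a time, the change after Pst hrcC- ran in WT from -0.74 to 0.19 for RD29A, -0.79 to 0.33 for RAB18, -0.91 to 0.041 for COR15A and -0.27 to 0.008 for LTI30, and in Atg3bp1 from -0.28 to 0.20 for RD29A, -0.11 to 0.94 for COR15A, -0.41 to 0.35 for LTI30 and -0.33 to 0.33 for COR15B. The difference between genotypes in mock ran from -1.02 to 0.27 for COR15A and from -0.16 to 0.27 for COR47, and the interaction from -0.31 to 0.13 for COR47 and from -0.042 to 0.60 for ERD10. Without both mock libraries numbered 1 the changes that turned were those of RD29A (0.19 in WT, 0.20 in Atg3bp1), RAB18 (0.24) and COR15A (0.041) in WT, and COR47 between genotypes in mock (-0.026). With the term for high factors RAB18 (-0.68) and COR47 (-0.21) turned between genotypes in mock, and COR47 (0.023) for the interaction. With no rescaling COR47 turned in mock (-0.036), and LTI30 in Atg3bp1 after Pst hrcC- (-0.012). With a replicate block within each treatment, 1 gene of the set, ERD10, was called lower in WT after Pst hrcC- (-1.14, limma adjusted p = 0.0271), and with a term for libraries of high scaling factor it was called as well (1 gene, -1.46, adjusted p = 0.00534). In the averaged contrast ERD10 was the 1 gene called lower with that term (-1.13, adjusted p = 0.00124), and COR47 and ERD10 were the 2 with no fold threshold. Leaving out 1 library at a time gave 0 to 1 genes called lower in the averaged contrast. ERD10 was that gene without WT mock replicate 2 (-1.04) or 3 (-1.10), Atg3bp1 mock replicate 3 (-1.09), WT hrcC replicate 2 (-1.06) or Atg3bp1 hrcC replicate 2 (-1.01). It missed an adjusted p of 0.05 without replicates 1 or 2 of Atg3bp1 mock (0.0754 and 0.0668), 1 or 3 of Atg3bp1 hrcC (0.0545 and 0.0797), 1 or 3 of WT hrcC (0.052 and 0.0536), with no filter (0.0511) and without both mock libraries numbered 1 (0.0733). In Atg3bp1 after Pst hrcC- the count called higher was 0 to 1, COR6.6 being called without Atg3bp1 mock replicate 1 and, as 1 gene, without both mock libraries numbered 1 (adjusted p = 0.0364). In the wider list, the term for high factors called 1 gene lower in WT after Pst hrcC- (PP2CA) and 2 lower in Atg3bp1 mock against WT mock (PP2CA and BAM3). With no fold threshold the averaged contrast called 10 higher, against 6 with it, and 2 lower (ABF2 and COR413-PM1). The replicate block ended the call of ERD1 in Atg3bp1 and, beside ERD10, changed no other call of the genes named. Between genotypes in mock, where same-numbered libraries deviated together, 0 were called with and without it. In the treatment comparisons same-numbered samples share only a number, while mock replicates 1 and hrcC replicates 2 deviated together. Without rescaling the median of all genes lay at -0.12 between genotypes in mock and at -0.15 after Pst hrcC-. The cause of these changes was not tested. With 3 libraries a group, intervals of low genes spanned more than 2-fold.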
